A study of Mus musculus with 10 samples.

Results

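The same mix of mouse mammary fibroblasts was grown beside a tumor line in each of 2 gels, and the lines differed. Of the 10 bulk RNA libraries of the series, the 4 fibroblast libraries of these 2 gels are described here: CD26- and CD26+ normal fibroblasts (NFs) cultured with line 13-MCB-17 (gel 4) and CD26- and CD26+ NFs cultured with line 10-SJK-221 (gel 5). They were chosen by their labels. CD26, the product of Dpp4, is a surface protein that divides mammary fibroblasts into subsets. All NFs came from mammary glands of mTmG mice aged 8 weeks; the mTmG reporter makes cells red until Cre turns them green. CD26+ NFs, and not CD26- NFs, had received an adenovirus carrying Cre. The subsets were mixed 1:1 in collagen/BME gels (basement membrane extract) with tumor cells and sorted by color after 7 days. The tumor lines came from invasive lobular carcinomas of mice in which WapCre, active in mammary epithelium, deletes floxed Cdh1, the gene of E-cadherin. The NFs carried no tumor-driving allele, and the tumor cells of both lines shared 1 genotype.

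Each line was used in 1 gel with NFs, so line and gel cannot be told apart: every difference below is a difference between 2 gels. CD26- and CD26+ NFs of a gel were cultured together and are not separate cultures. Exposure to the virus cannot be told apart from the subset, and by the study's methods the NFs of a sort were pooled from several mice. The tests therefore set the mean difference between gels against how far that difference departed between the subsets, a spread that may be technical and was shared over all genes, and not against the spread between cultures.

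Fibroblasts of the mammary gland make the collagen-rich matrix around ducts, and beside tumor cells they can take up contractile, matrix-producing or inflammatory programs. These programs are driven by factors that tumor cells secrete or display, including TGF-beta, PDGF, interleukin-1 and Notch ligands, and tumor lines differ in what they make. Platelet-derived growth factor receptor beta, Thy1 and Fap are fibroblast markers, and Acta2 and Actg2 encode smooth muscle actins of contractile fibroblasts.

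The 4 libraries held 14142334 to 17376216 counts. The level of a gene is given as CPM, counts scaled to the library total. Subset accounted for most of the variation among them: the first principal component of log-scaled CPM held 64.3% of the variance and separated CD26- from CD26+ NFs, and the second, with 22.9%, separated the gels. Fibroblast markers were high in all 4 (10 markers, summed level 25021 to 43562 CPM) and Col1a1, the main chain of type I collagen, stood at 14344 and 7882 CPM in gel 4 (CD26- and CD26+ NFs) and 13752 and 9544 CPM in gel 5. Dpp4 itself was close to absent at 0 to 0.771 CPM and was not tested.

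Tumor RNA was present in all 4 NF libraries. Epcam, an epithelial surface protein, was at 0 in NFs alone. It stood at 6.42 and 8.42 CPM in CD26- and CD26+ NFs of gel 4 and at 7.14 and 15.9 CPM in those of gel 5, against 335 and 358 CPM in the tumor cells sorted from these gels. Over 19 epithelial markers, the median ratio of the level in NFs to that in tumor cells of the same gel was 2.02% in CD26- and 3.23% in CD26+ NFs of gel 4, and 2.26% and 5.63% in those of gel 5. The median ratio was used as the share of carried-over tumor RNA. Single markers ran from 1.19% to 9.79% in CD26- and from 0.678% to 12.7% in CD26+ NFs of gel 4. In gel 5 they ran from 0.827% to 9.19% and from 2.57% to 17.7%, so the values derived from the share are approximate. For each gene, share times tumor level gave the difference between gels that carried-over RNA would make, and this was expressed as a percentage of the observed difference, called the covered percent.

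Of 14410 genes tested, 304 (2.11%) differed between the gels at an adjusted p under 0.05 (edgeR quasi-likelihood test with subset as covariate, Benjamini-Hochberg adjustment). In gel 5, 180 genes (1.25% of those tested) were higher and 124 (0.861%) were lower. Differences were mostly moderate: 81 of the 304 exceeded 2-fold, and 6 exceeded a log2 fold change of 2. All 180 higher genes and 119 of the 124 lower genes moved the same way in both subsets (all genes tested, 56.3%), and a gene that does so passes more easily. The libraries of the gels did not overlap in 119 higher and 91 lower genes (all genes tested, 27.6%). The median difference of the higher genes was 0.76 in CD26- and 0.86 in CD26+ NFs (log2). For the lower genes it was -0.67 and -0.94.

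These calls rest on a model with 1 residual degree of freedom, whose spread was taken over from all genes together. No gene passed when the 2 libraries of NFs alone entered the fit (edgeR; lowest adjusted p = 0.394, 947 genes at an unadjusted p under 0.05) or when the subset was left out of the model (edgeR; 311 genes at an unadjusted p under 0.05), nor when any 1 of the 4 libraries was left out of the fit with NFs alone. DESeq2 on the same 4 libraries called 38 genes, all of them among the 304. In the fit with NFs alone all 304 genes kept their direction and 280 had an unadjusted p under 0.05.

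**Figure D1:**
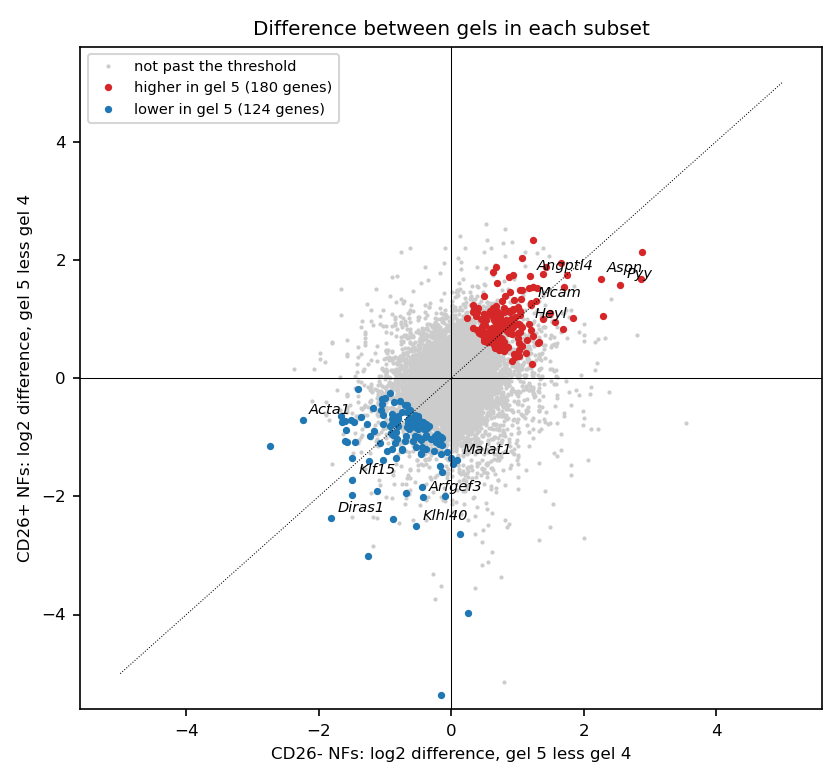
Each point is a gene; the horizontal axis gives the log2 difference between gel 5 and gel 4 in CD26- NFs and the vertical axis that in CD26+ NFs, with 180 genes higher in gel 5 in red, 124 lower in blue and genes not past the threshold in gray. The red points all lie above 0 on both axes, and Malat1 is among 20 blue points whose CD26- difference is under 0.3 in size.

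The lowest adjusted p in the edgeR fit of the 4 libraries was that of Aspn, the gene of asporin. Aspn (chr13:49544443-49567565) encodes a small leucine-rich proteoglycan that binds collagen and TGF-beta. It stood at 8.18 CPM in CD26- and 2.89 CPM in CD26+ NFs of gel 4, and at 37.3 and 9.33 CPM in those of gel 5. Both libraries of gel 5 lay above both of gel 4, and the log2 fold change was 2.06 ± 0.21 (SE; edgeR adjusted p = 1.42e-17, also past the threshold in DESeq2). In the fit with NFs alone it was 2.07 with an edgeR adjusted p of 0.576, and there it became 0.91 without CD26- NFs of gel 5, 2.69 without CD26- NFs of gel 4 and 2.78 without CD26+ NFs of gel 5. In NFs alone Aspn was higher still, at 48.2 and 79.1 CPM, so it was below its level alone in both gels and least so in gel 5. Tumor cells had at most 0.113 CPM in either gel. Exons of Aspn overlap exons of Cenpp on the other strand, and the use of strand in counting is not given in the sources used here.

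Of 34 collagen chains tested, 5 were higher in gel 5 and 0 lower, where 1.25% of all genes were higher and 0.861% lower. Log2 fold changes were positive in 26 chains and negative in 8, with a median of 0.20 against 0.00 over all genes. The 3 chains of collagen VI, a beaded-filament collagen of the pericellular matrix, were all among the 5 higher. Col6a1 (chr10:76708792-76726168) stood at 2832 and 1647 CPM in CD26- and CD26+ NFs of gel 4 and at 4303 and 2970 CPM in those of gel 5. Col6a2 went from 1602 and 988 to 2422 and 1842 CPM. Col6a3 went from 1883 and 1265 to 3590 and 1608 CPM. Their log2 fold changes were 0.79 ± 0.18, 0.81 ± 0.18 and 0.70 ± 0.18. In each subset the gel 5 library was higher for all 3 chains. The groups overlapped for Col6a3, whose level in CD26+ NFs of gel 5 lay below that in CD26- NFs of gel 4. Col15a1 (0.69 ± 0.17), a basement membrane-associated collagen, and Col27a1 (0.58 ± 0.17), a fibrillar one, were the other two. Col1a1 had a log2 fold change of 0.17 ± 0.18 and did not pass (edgeR adjusted p = 0.827).

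Of 55 matrix glycoproteins and proteoglycans, 3 were higher and 1 lower (all genes, 1.25% and 0.861%). Fold changes were positive in 38 and negative in 17 (median 0.19). Besides Aspn, the higher genes were Smoc2 (1.21 ± 0.26), a calcium-binding matricellular protein, and Ccn5 (0.88 ± 0.18). NFs alone held more of both than either gel, at 41.6 and 29.4 CPM for Smoc2 and 441 and 253 CPM for Ccn5. The gene lower in gel 5 was Lama5, a laminin chain, whose level fell from 84.1 and 125 CPM to 52.5 and 71.1 CPM. Lama5 stood at 1385 and 1080 CPM in the tumor cells of these gels and at 3.04 and 9.41 CPM in NFs alone. Expected carried-over RNA was 36.4 CPM of a mean of 105 CPM in gel 4 and 42.6 CPM of 61.8 CPM in gel 5. The covered percent of Lama5 was -14.6, since more carried-over RNA was expected in gel 5. Among 22 genes of crosslinking and procollagen processing, 20 had a positive fold change, and Loxl2 (0.70 ± 0.17), a lysyl oxidase, and P4ha3 (0.59 ± 0.17), a prolyl hydroxylase, passed. Of 23 metalloproteinases and inhibitors, 1 was higher, where 1.25% of all genes were: Timp1, at 1337 and 766 CPM in gel 4 and 1770 and 1283 CPM in gel 5 (0.63 ± 0.17). Mgp, which encodes the calcification inhibitor matrix Gla protein, and Cthrc1, which encodes a secreted protein of remodeling matrix, were picked after their values were seen. Mgp was at 499 and 174 CPM in gel 4 and at 1082 and 400 CPM in gel 5 (1.22 ± 0.17), and Cthrc1 at 69.7 and 31.2 CPM and at 125 and 55.5 CPM (0.90 ± 0.17).

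Of 24 contractile genes, 3 were higher and 0 lower, where 1.25% of all genes were higher and 0.861% lower. Fold changes were positive in 19 and negative in 5 (median 0.15). Acta2 was at 238 and 80.2 CPM in CD26- and CD26+ NFs of gel 4 and at 360 and 152 CPM in those of gel 5, a log2 fold change of 0.82 ± 0.17. It was lower in both gels than in NFs alone (574 and 343 CPM). Actg2 (0.85 ± 0.24) and Itga11 (0.62 ± 0.17), the collagen-binding integrin alpha 11, were the others, and Itga1 (0.64 ± 0.17), another collagen receptor, was the second of 20 integrins to pass. In all 4 the gel 5 library of each subset exceeded the gel 4 library of that subset. The groups overlapped, since CD26+ NFs of gel 5 stood below CD26- NFs of gel 4.

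Of 4 pericyte markers all were tested and had positive fold changes, and 2 passed, where 1.25% of all genes were higher. Abcc9, a subunit of a potassium channel of mural cells, was at 3.94 and 4.30 CPM in gel 4 and 9.90 and 8.56 CPM in gel 5 (1.22 ± 0.26). Rgs5, a regulator of G-protein signaling, was at 1.88 and 2.95 CPM and 3.74 and 6.22 CPM (1.09 ± 0.33). The summed level of the 4 markers was 194 and 134 CPM in gel 4, 285 and 160 CPM in gel 5, and 58.0 and 82.7 CPM in NFs alone. The markers that passed were not high against NFs alone, in which Abcc9 stood at 19.9 and 6.32 CPM and Rgs5 at 9.25 and 6.11 CPM. In bulk RNA, more cells of a kind and more RNA per cell cannot be told apart. Mcam, Ednra and Cd248, which mural cells express too, were picked after their values were seen. Mcam, which encodes the adhesion molecule CD146, was at 47.6 and 16.3 CPM in gel 4 and at 104 and 38.5 CPM in gel 5 (1.24 ± 0.18). Ednra, the endothelin A receptor, had a log2 fold change of 0.97 ± 0.17, and Cd248, endosialin, of 0.74 ± 0.17.

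Of 10 fibroblast markers 3 passed, all higher in gel 5, where 1.25% of all genes were higher. The other 7 did not, and over the 10 markers the fold changes were positive in 7 and negative in 3, from -0.39 to 0.89 (median 0.34). Thy1 was at 464 and 639 CPM in gel 4 and at 725 and 1293 CPM in gel 5, with no overlap (0.89 ± 0.17). Pdgfrb was at 907 and 483 CPM and at 1262 and 747 CPM (0.61 ± 0.17), and Fap, a membrane protease, at 39.9 and 34.9 CPM and at 64.6 and 50.5 CPM (0.68 ± 0.17). NFs alone held 223 and 456 CPM of Thy1, 1043 and 764 CPM of Pdgfrb and 29.7 and 69.4 CPM of Fap.

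Notch signaling passes from a ligand on one cell to a receptor on its neighbor and switches on genes of the Hes and Hey families. Of 14 Notch genes, 2 were higher and 0 lower, where 1.25% of all genes were higher and 0.861% lower. Fold changes were positive in 9 and negative in 5, down to -1.08 (median 0.32). The 2 higher genes are both targets. Heyl was at 66.2 and 31.0 CPM in gel 4 and at 140 and 57.2 CPM in gel 5 (1.05 ± 0.18). Hey1 was at 4.00 and 2.70 CPM and at 7.71 and 6.22 CPM (1.13 ± 0.28). In NFs alone Heyl stood at 0.745 and 1.26 CPM and Hey1 at 0.807 and 1.82 CPM, below all 4 co-cultures, so the gel in which these targets stood higher was the one farther from NFs alone. Tumor cells held at most 0.913 CPM of either gene.

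**Figure D2:**
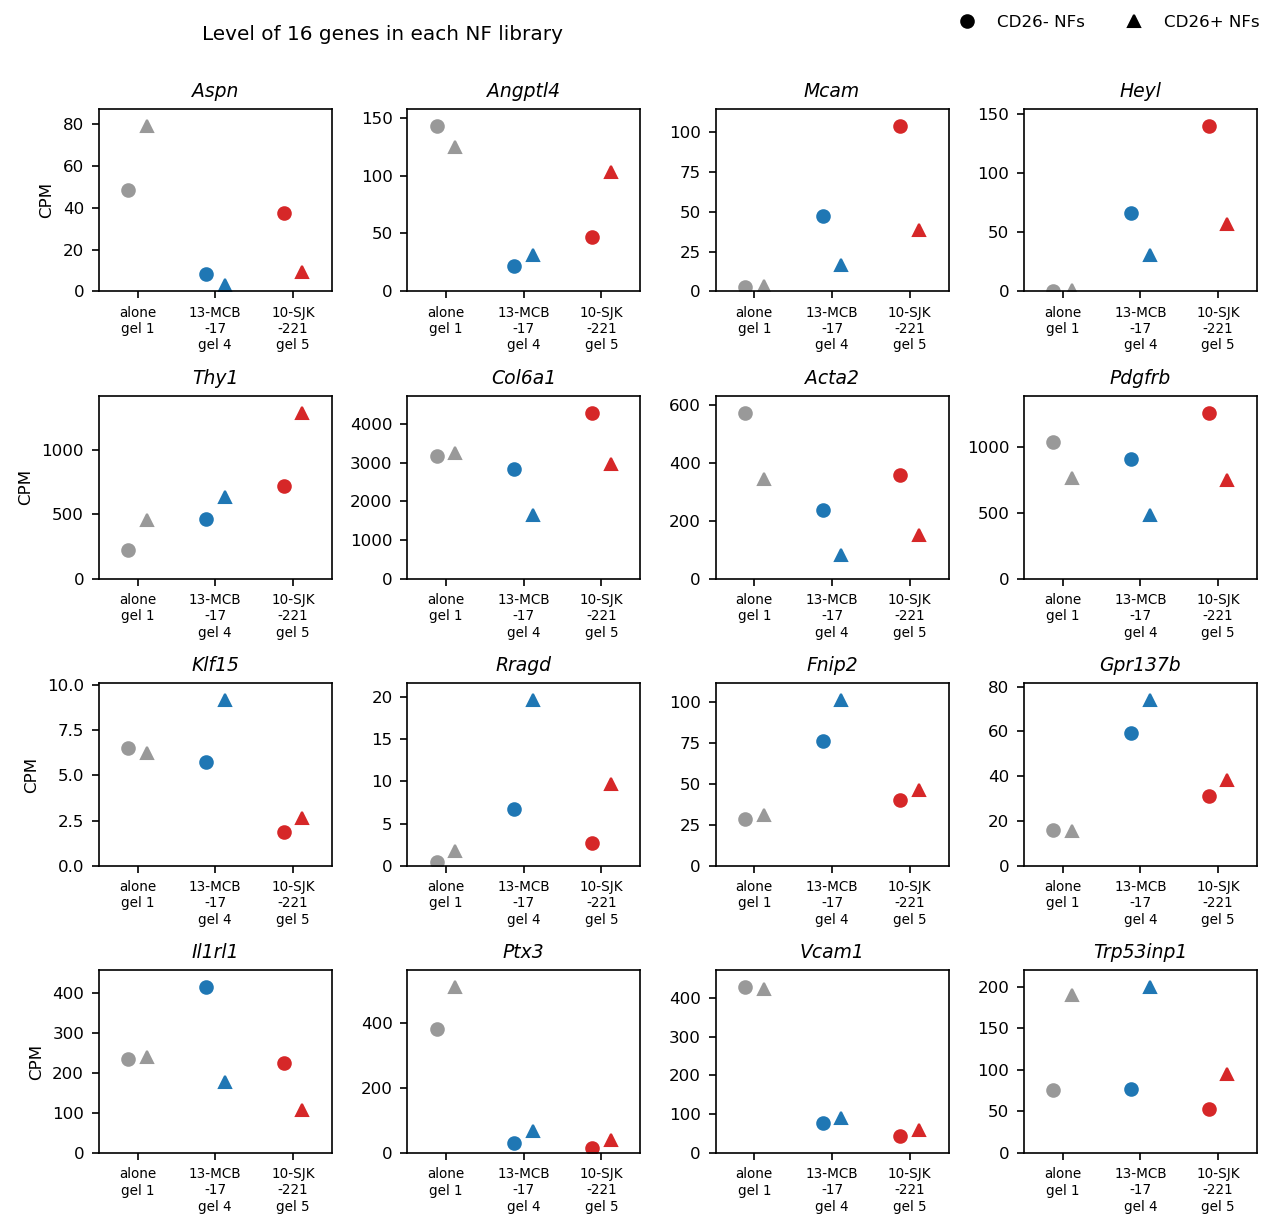
CPM of 16 genes in each NF library on a linear axis from 0, with CD26- NFs as circles, CD26+ NFs as triangles, and NFs alone (gray), gel 4 (blue) and gel 5 (red) side by side; each point is 1 library. For the upper 8 genes each subset stands higher in gel 5 than in gel 4, for the lower 8 it stands lower, and Heyl and Rragd are near 0 in NFs alone.

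Several higher genes encode secreted proteins. Angptl4, a secreted inhibitor of lipoprotein lipase, rose from 21.7 and 31.8 CPM to 47.0 and 103 CPM (1.47 ± 0.18, edgeR adjusted p = 3.77e-13), toward its level in NFs alone (143 and 125 CPM). Igfbp3, an IGF-binding protein, rose from 124 and 515 CPM to 181 and 1141 CPM (0.91 ± 0.17), and Igfbp4 by 0.60 ± 0.17. Igfbp4 stood at 181 and 148 CPM in gel 4 and at 234 and 243 CPM in gel 5. In NFs alone Igfbp3 stood at 92.8 and 364 CPM and Igfbp4 at 4478 and 2124 CPM. Tumor cells made Igfbp3 in line 10-SJK-221 (21.0 CPM) and hardly in 13-MCB-17 (0.113 CPM), and the covered percent of this gene was 0.242. The list of 48 growth factors and receptors had 4 higher and 2 lower members (all genes, 1.25% and 0.861%) and a median of 0.06.

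Of 32 cytokines and chemokines, 2 were higher and 0 lower (median 0.13), where 1.25% of all genes were higher and 0.861% lower. Ccl2, a monocyte attractant, was at 45.2 and 40.6 CPM in gel 4 and 71.3 and 55.1 CPM in gel 5 (0.61 ± 0.17), and Il34, a ligand of the CSF1 receptor, at 12.3 and 11.1 CPM and 18.8 and 24.1 CPM (0.92 ± 0.19). The groups did not overlap for either. In NFs alone Ccl2 stood higher than in both gels, at 205 and 268 CPM, and Il34 lower, at 3.23 and 4.14 CPM. Cxcl12 was low in both gels compared with NFs alone (2037 and 1024 CPM), at 42.9 and 35.1 CPM in gel 4 and 53.8 and 36.7 CPM in gel 5, and its log2 fold change of 0.26 ± 0.17 did not pass (edgeR adjusted p = 0.623). Its receptor Cxcr4 was higher in gel 5 (1.45 ± 0.43) at a low level, 1.09 and 1.16 CPM against 2.07 and 4.10 CPM.

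Other lists held 1 or 2 higher genes, where 1.25% of all genes were higher: Tgfb3 (0.60 ± 0.17) of 34 TGF-beta and BMP genes, the Wnt antagonist Dkk2 (0.64 ± 0.18) of 32 Wnt genes, the complement gene C4b (0.96 ± 0.23), which has the near-identical copy C4a, of 16, and Plat (0.62 ± 0.17) and Tfpi2 (0.59 ± 0.17), a protease and an inhibitor of the plasminogen and serpin list, of 18 (median 0.37). C4b stood at 309 and 598 CPM in NFs alone, 3.94 and 9.31 CPM in gel 4 and 8.86 and 15.1 CPM in gel 5. Of 39 genes of glycolysis and the hypoxia response, Car12 (0.64 ± 0.17), a carbonic anhydrase, and Ndrg1 (0.64 ± 0.17) were higher and Adm, adrenomedullin, was lower (-0.59 ± 0.17). Tumor cells of gel 4 held 42.3 CPM of Car12 and those of gel 5 7.19 CPM, the reverse of the order in NFs.

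Of the other genes with high fold changes and little tumor RNA, most were expressed at a few CPM. Pyy, which encodes the gut peptide YY, was at 0.242 and 0.514 CPM in gel 4 and 1.90 and 1.77 CPM in gel 5 (2.34 ± 0.59) and at 0 in NFs alone. Gipr, the receptor of the incretin GIP, was at 10.6 and 6.62 CPM and 21.1 and 18.3 CPM (1.28 ± 0.20), and close to 0 in NFs alone (0.0621 and 0 CPM). Ropn1l (1.96 ± 0.56), Cited1 (1.86 ± 0.46), Pilra (1.61 ± 0.33), Filip1 (1.56 ± 0.37), Tnfsf15 (1.5 ± 0.38), Dgkk (1.33 ± 0.29) and Spock1 (1.26 ± 0.28) completed the group, each with a mean under 10 CPM in both gels.

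Among the lower genes was a regulator of metabolism. Klf15 (chr6:90462576-90475238), a transcription factor that glucocorticoids and fasting induce, was at 5.76 and 9.19 CPM in CD26- and CD26+ NFs of gel 4 and at 1.84 and 2.62 CPM in those of gel 5. The groups did not overlap and the log2 fold change was -1.67 ± 0.30 (edgeR adjusted p = 2.52e-05). NFs alone held 6.52 and 6.25 CPM, so gel 4 was near the level alone and gel 5 below it. Prkaa2, a catalytic subunit of the energy sensor AMPK, was at 3.33 and 9.06 CPM in gel 4 and at 1.38 and 2.26 CPM in gel 5 (-1.62 ± 0.34). Bdh1, an enzyme of ketone body metabolism, fell by 1.37 on the log2 scale (SE 0.33).

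On the lysosome, the Rag GTPases and folliculin with its partners pass nutrient signals to mTORC1 and restrain the transcription factors TFEB and TFE3, which drive lysosomal genes. A list of 79 genes of the lysosome, the proton pump and this pathway was drawn up after the values were seen, so its count of lower genes was shaped by the calls and is a description only. Of 78 tested (all genes, 0.861% lower), 7 were lower in gel 5 and 0 higher, 48 had a negative fold change and the median was -0.05, so the list as a whole was near the median of all genes. Rragd, a Rag GTPase, was at 6.73 and 19.7 CPM in gel 4 and at 2.65 and 9.69 CPM in gel 5 (-1.10 ± 0.23). Fnip2, a folliculin partner, was at 76.0 and 101 CPM and at 39.7 and 46.2 CPM (-0.97 ± 0.17). Gpr137b, a lysosomal membrane protein that acts with Rag GTPases, was at 59.1 and 74.1 CPM and at 31.2 and 38.3 CPM (-0.88 ± 0.17). Fnip2 and Gpr137b did not overlap between gels and also passed in DESeq2. All 3 were lower in NFs alone than in either gel, at 0.373 and 1.75 CPM for Rragd, 28.3 and 30.6 CPM for Fnip2 and 15.8 and 15.4 CPM for Gpr137b.

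The other 4 lower genes of this list were Sort1 (-0.78 ± 0.22), a sorting receptor, Atp6v0d2 (-0.76 ± 0.23), a subunit of the proton pump, Cd68 (-0.67 ± 0.17) and the proton channel gene Hvcn1 (-0.57 ± 0.17). Cd68 is also an immune marker. The summed level of 8 immune markers was 46.8 and 64.3 CPM in gel 4 and 31.8 and 41.8 CPM in gel 5, most of it from Cd68 (32.3 and 53.5 CPM, then 19.6 and 32.2 CPM), which tumor cells expressed too (80.5 and 34.8 CPM). The covered percent of Cd68 was 4.35. By the study's methods, cells carrying CD45, the marker of immune cells, were left out when the NFs were sorted before culture; the part of immune cells in this difference was not tested.

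The adhesion genes Vcam1 and Icam1 were lower in gel 5. Of 19 genes of NF-kB subunits and feedback, 2 were lower and 0 higher (median -0.07), where 0.861% of all genes were lower. Vcam1, an adhesion molecule for leukocytes, was at 75.9 and 89.3 CPM in gel 4 and at 42.7 and 58.8 CPM in gel 5 (-0.66 ± 0.17), and Icam1 at 18.2 and 52.4 CPM and at 10.7 and 34.4 CPM (-0.62 ± 0.18). In each subset both stood lower in either gel than in NFs alone (429 and 425 CPM for Vcam1, 39.9 and 106 CPM for Icam1). Ptx3, a soluble pattern recognition protein, and Il1rl1, the receptor of interleukin-33, were picked after their values were seen. Ptx3 was at 29.4 and 68.6 CPM in gel 4 and at 13.5 and 38.9 CPM in gel 5 (-0.91 ± 0.18). Il1rl1 was at 414 and 176 CPM and at 224 and 107 CPM (-0.74 ± 0.17).

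Of 20 p53 targets, 2 were lower and 0 higher, and 16 had a negative fold change (median -0.19). Over all genes tested, 0.861% were lower and 1.25% higher. Trp53inp1, a stress protein of autophagy, was at 77.3 and 200.0 CPM in gel 4 and at 52.9 and 94.8 CPM in gel 5 (-0.76 ± 0.17), and Zmat3, an RNA-binding protein, at 109 and 174 CPM and at 69.3 and 103 CPM (-0.64 ± 0.17). Of 32 genes of amino acid stress and the unfolded protein response, Ddit3 (-0.59 ± 0.17), which encodes CHOP, and Fgf21 (-0.64 ± 0.18), a stress hormone, were lower and Asns was higher. Nrg1, an ERBB receptor ligand, fell by 0.71 on the log2 scale (SE 0.17), and Hoxa9, the 1 Hox gene of 25 to pass, by 0.81 (SE 0.24). Exons of Ddit3, Hoxa9, Unc93a2, Itga1, Malat1, Top2a and Loxl2 overlap those of other annotated genes on the same strand, so their counts are uncertain.

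The rest of the 12 lowest genes with a covered percent under 10, gene models left out, had a mean of at most 12.1 CPM in either gel. Diras1 (-2.33 ± 0.55), a small GTPase, was at 2.24 and 2.44 CPM in gel 4 and 0.518 and 0.354 CPM in gel 5. Then came Unc93a2 (-1.95 ± 0.56), Myo1g (-1.88 ± 0.41), an unconventional myosin, CT010467.2 (-1.69 ± 0.49) and Acta1 (-1.43 ± 0.27), the skeletal muscle actin. Lrrc23 (-1.40 ± 0.41), Klhl40 (-1.40 ± 0.36), Rtn4r (-1.34 ± 0.29), the Nogo receptor, and Arfgef3 (-1.32 ± 0.25) completed this group. Acta1 moved against Acta2 and Actg2, at 9.39 and 9.44 CPM in gel 4 and 1.78 and 5.59 CPM in gel 5.

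Part of the lower set rested on the pair of CD26+ libraries. In 20 of the 124 lower genes the CD26- difference was under 0.3 (log2) in size, and in 2 the CD26+ difference was, whereas among the 180 higher genes these counts were 1 and 2. In CD26+ NFs, 16 of these 20 lower genes had a level in gel 5 nearer to that in NFs alone than their level in gel 4, and 4 the reverse. Malat1, an abundant nuclear RNA picked after its values were seen, was at 2128 CPM in CD26- NFs of gel 4 and 2124 CPM in those of gel 5. In CD26+ NFs it was at 2893 CPM in gel 4, 1081 CPM in gel 5 and 1199 CPM alone, so the gel 4 library stood apart. The difference between gels also moved with transcript length in CD26+ NFs. With the genes in 5 groups of rising length, by the longest annotated transcript, from the shortest to the longest group the median difference went from 0.20 to -0.24 in CD26+ NFs and from -0.04 to 0.10 in CD26- NFs. The median transcript was 4098 bases in lower genes, 3283 in higher genes and 3316 over all genes. Its part in the calls was not tested. With a difference of at least 0.3 required in each subset, 177 higher and 102 lower genes remained.

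**Figure D3:**
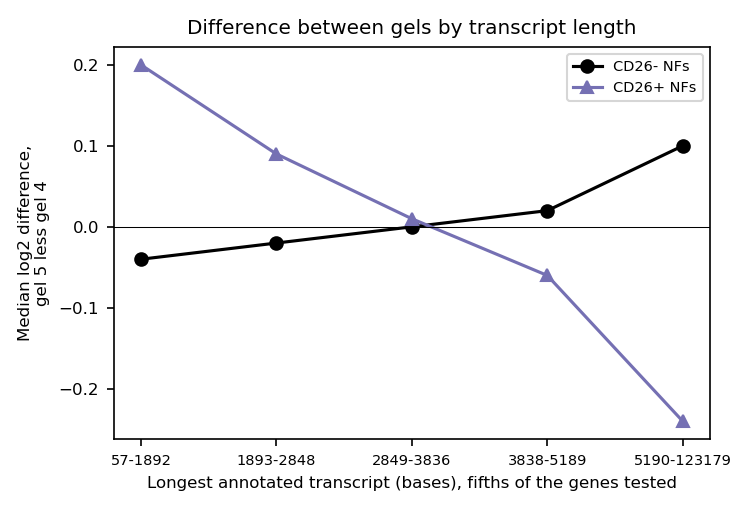
Median log2 difference between gel 5 and gel 4 (vertical axis) in 5 equal groups of the tested genes by length of the longest annotated transcript in bases (horizontal axis), for CD26- NFs (circles) and CD26+ NFs (triangles). The CD26+ line falls from 0.20 to -0.24 and the CD26- line rises from -0.04 to 0.10.

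Carried-over tumor RNA touched a minority of the 304 genes. The covered percent was under 10 in 136 higher and 120 lower genes, between 10 and 50 in 16 and 2, and at 50 or more in 28 and 2. Of the 136, all 4 NF libraries lay above both libraries of NFs alone in 56 genes and below both in 35. Of the 120, these counts were 48 and 12. With the expected carried-over counts subtracted, 122 genes were higher and 102 lower, 199 of them among the 304. Keratins, the intermediate filaments of epithelia, had high covered percents, which follows from the method, since Krt7, Krt8 and Krt18 are among the markers that set the share. The higher gene 1110002E22Rik, at 0.364 and 0.771 CPM in gel 4 and 3.22 and 2.69 CPM in gel 5 (2.45 ± 0.50), was among the 3 with the highest fold changes at 1 CPM or more, and had a covered percent of 106. Krt8 was at 19.8 and 33.7 CPM in gel 4 and at 30.8 and 69.4 CPM in gel 5 (0.90 ± 0.17) with 1001 and 1438 CPM in the tumor cells, and its covered percent was 130. Krt18 (0.86 ± 0.17) and Krt7 (0.65 ± 0.18) had 107 and 66.4. All 17 epithelial markers tested had positive fold changes (median 0.61). In the other direction Chil1, a chitinase-like secreted protein, was at 16.4 and 24.2 CPM in gel 4 and 5.35 and 9.19 CPM in gel 5 (-1.44 ± 0.20), with 560 and 94.2 CPM in tumor cells and a covered percent of 84.3, and Clu, clusterin, had 52.6.

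Cell cycle genes belonged to this class in part. Of 41 tested, 8 were higher in gel 5 and 0 lower (median 0.48), where 1.25% of all genes were higher and 0.861% lower. The 8 were Cdca3 (1.48 ± 0.37), Kif11 (1.40 ± 0.36), Cenpf (1.29 ± 0.30), Ccnb2 (1.28 ± 0.28), Ccna2 (1.02 ± 0.29), Mcm6 (1.01 ± 0.25), Top2a (0.83 ± 0.19) and Mki67 (0.73 ± 0.22). Their covered percents ran from 30.3 (Cdca3) to 83.9 (Mki67). Top2a, the topoisomerase of dividing cells, was at 16 and 11.2 CPM in gel 4, at 25 and 20.9 CPM in gel 5, and at 51.7 and 21.4 CPM in NFs alone. In tumor cells it was at 218 and 316 CPM. After subtraction Mki67, the proliferation marker, had a log2 fold change of -0.19, the reverse of its direction.

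**Figure D4:**
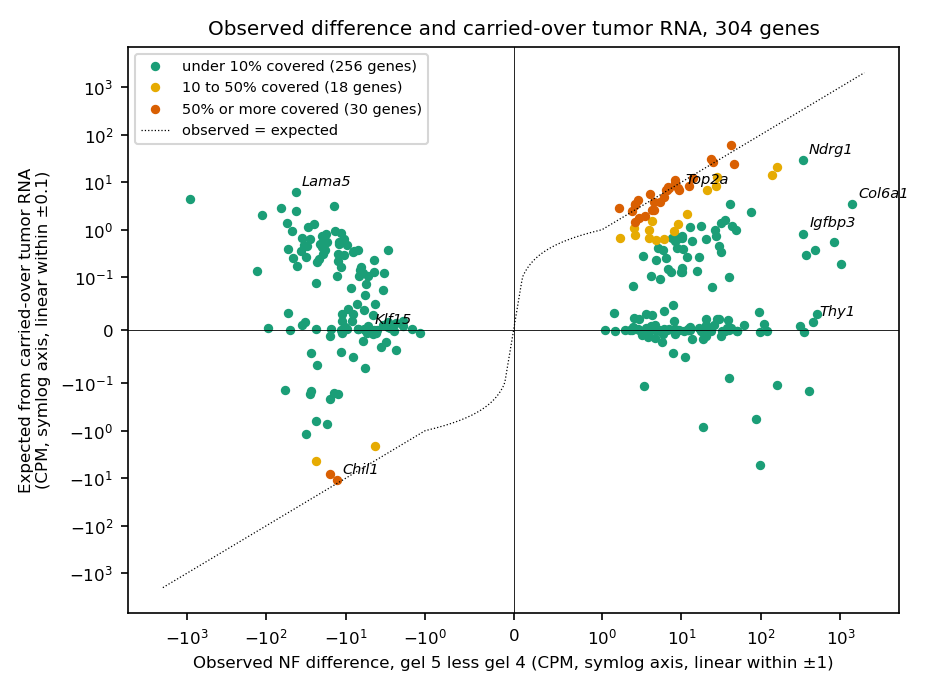
Each point is one of the 304 genes; the horizontal axis is the observed difference between gel 5 and gel 4 in mean NF level and the vertical axis the difference expected from carried-over tumor RNA, both in CPM on symmetric log axes, with colors for the covered percent (256 genes under 10, 18 from 10 to 50, 30 at 50 or more). On the dotted line expected and observed difference are equal; Top2a and Chil1 (72 and 84.3% covered) lie near it, and Thy1, Col6a1 and Klf15 far from it.

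A stretch at the start of chromosome 6, picked after its values were seen, held several covered genes. Between positions 3000000 and 9000000 (GRCm38), 9 of 26 genes tested in NFs were higher in gel 5 and 0 lower (all genes, 1.25% and 0.861%). Chromosome 6 had the highest share of called genes among chromosomes 1 to 19 and X, at 4.04% of 718. In the tumor cells, 20 genes of this stretch had a mean of at least 10 CPM, and 19 of them were higher in line 10-SJK-221 in co-culture, with a median log2 difference of 1.99 against 0.05 over all genes at that level. In tumor cells alone the median was 1.77. Of the 9 genes called in NFs, 7 had a covered percent of at least 30: Samd9l (70.6), Casd1 (84.4), Gm44250 (113), Pon2 (33.5), Slc25a13 (139), Asns (54.1) and Rpa3 (62.3). Asns, asparagine synthetase, stood at 110 and 99.2 CPM in NFs of gel 4 and at 146 and 154 CPM in those of gel 5, and at 129 and 709 CPM in tumor cells. The other two, Tfpi2 and Gng11, a G-protein subunit, had covered percents of -0.00625 and 4.54. Gng11 was at 33.5 and 32.9 CPM and at 58.1 and 70.8 CPM in NFs (1.01 ± 0.17).

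In several lists no gene passed, which for lists of this size says little where 2.11% of all genes were called. There was none among 26 interferon response genes (median -0.01), 21 genes of MHC class I presentation (-0.05), 34 of cholesterol and fatty acid synthesis (0.05), 24 NRF2 targets (0.04), 9 metallothionein and zinc genes (0.10), 23 ADAM and ADAMTS proteases (0.02), 15 prostaglandin genes (-0.10) and 16 imprinted genes (0.04). Nor did one pass among 21 immediate early genes (0.10), which cell dissociation can induce, 9 mitochondrially encoded genes (0.23), 3 endothelial (-0.99), 2 basal epithelial (0.83) and 1 adipocyte marker (0.42) tested. In 22 lipid-handling genes Angptl4 was the only call (median -0.10). Mmp9 and Tnc, high in both gels against NFs alone, did not pass either: Mmp9, matrix metalloproteinase 9, was at 12.9 and 18.6 CPM in NFs alone, 4443 and 5350 CPM in gel 4 and 3880 and 6332 CPM in gel 5 (0.08 ± 0.18, edgeR adjusted p = 0.923), and Tnc, tenascin C, at 997 and 1514 CPM, 12143 and 9196 CPM, and 14870 and 9851 CPM (0.26 ± 0.18, edgeR adjusted p = 0.666). Their difference between gels was within the error of the fit, which does not show that they were equal.

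**Figure D5:**
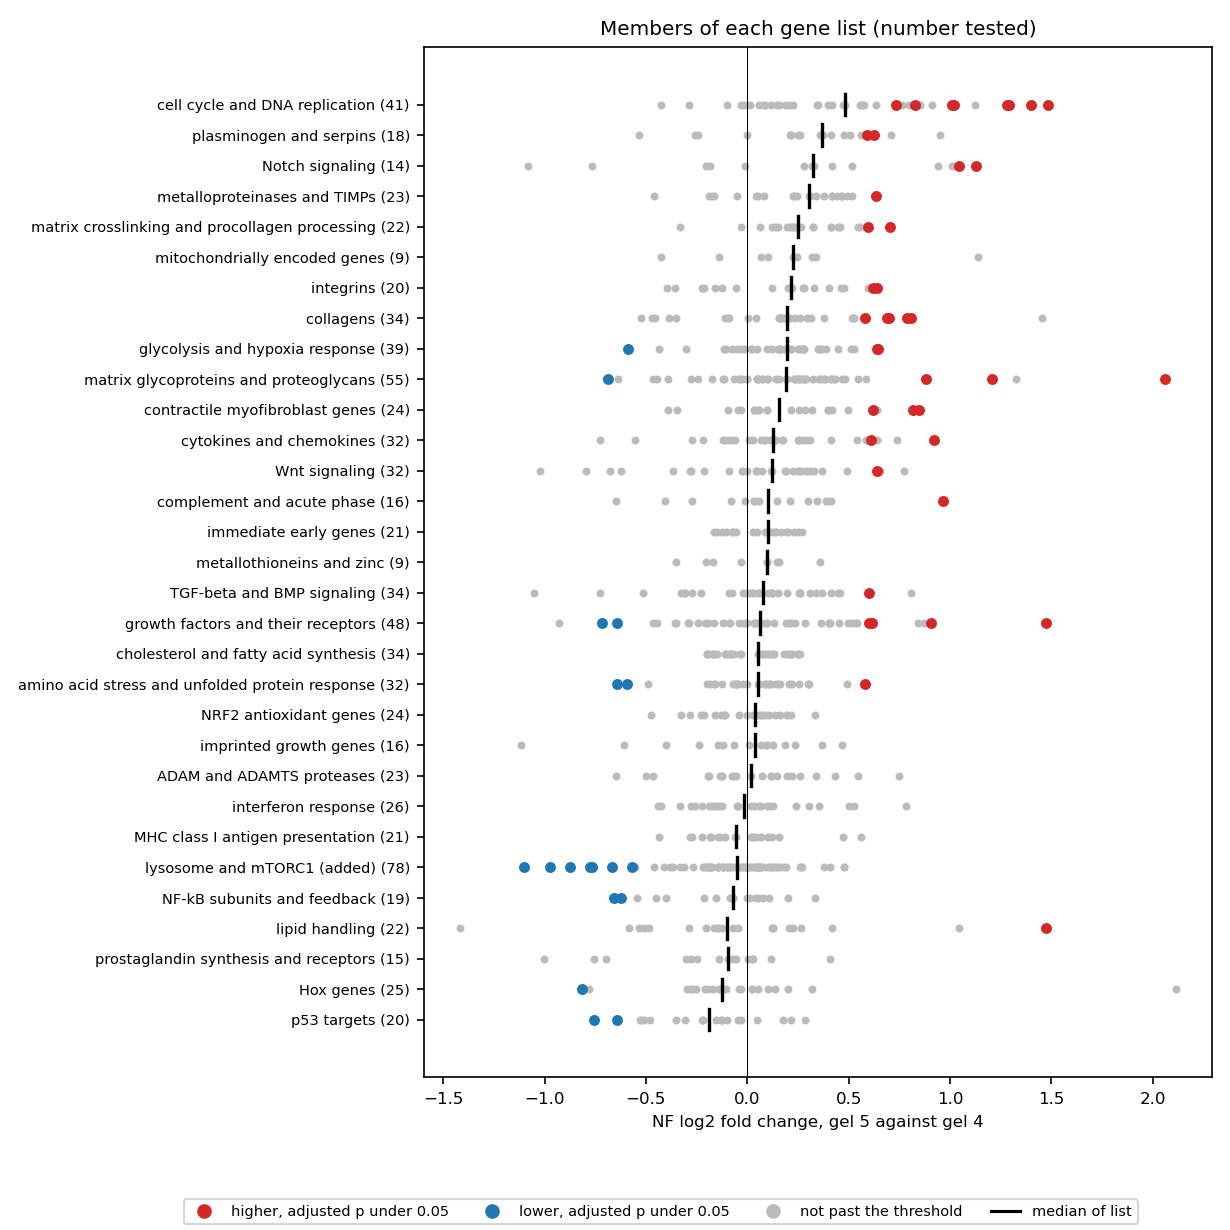
Log2 fold change of gel 5 against gel 4 in NFs (horizontal axis) for every tested member of each gene list (rows, number tested in brackets), with members higher in red, lower in blue, others in gray, and the list median as a black bar. Marker lists are not drawn; the medians of the others run from 0.48 for cell cycle genes to -0.19 for p53 targets, and most lists hold between 0 and 5 called members.

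Sequence just before the start of the genes is shown for Klf15 and Acta1, lower in gel 5, and Filip1, higher in gel 5, because each holds a motif searched among the called genes (RefSeq, GRCm38.p6, 250 bases before the annotated start). Capitals mark CACGTG, the E-box bound by TFEB and USF factors, in Klf15 and the CArG box of serum response factor in the others.
Klf15, chr6:90462326-90462575, plus strand: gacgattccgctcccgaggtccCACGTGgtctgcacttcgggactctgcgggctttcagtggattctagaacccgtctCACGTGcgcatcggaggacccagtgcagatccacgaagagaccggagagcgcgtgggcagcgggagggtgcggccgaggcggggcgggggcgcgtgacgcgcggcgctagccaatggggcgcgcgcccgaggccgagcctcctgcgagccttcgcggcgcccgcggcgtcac
Acta1, chr8:123894776-123895025, minus strand: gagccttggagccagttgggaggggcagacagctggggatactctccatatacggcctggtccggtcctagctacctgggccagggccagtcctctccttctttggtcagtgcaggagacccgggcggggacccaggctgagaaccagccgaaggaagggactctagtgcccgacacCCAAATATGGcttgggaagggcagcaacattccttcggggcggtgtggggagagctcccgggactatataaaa
Filip1, chr9:79977883-79978132, minus strand: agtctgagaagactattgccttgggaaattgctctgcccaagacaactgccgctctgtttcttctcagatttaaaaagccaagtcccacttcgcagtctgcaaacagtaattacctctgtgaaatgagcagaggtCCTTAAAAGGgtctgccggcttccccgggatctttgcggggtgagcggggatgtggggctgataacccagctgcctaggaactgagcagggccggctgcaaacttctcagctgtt
Filip1 has further annotated starts without this motif. Of the called genes, 124 higher and 85 lower had a promoter in the table. CACGTG was present in 8.87% of the higher and 9.41% of the lower genes, against 9.90% of all tested genes with a promoter and 6.02% of all promoters. The CArG box was present in 4.03% and 2.35%, against 1.39% and 1.47%, and those shares stand for 5 and 2 genes. TGANTCA, the AP-1 site, was in 6.45% and 8.24%, against 5.83% and 6.75%, and GTGGGAA, the core of Notch-responsive sites, searched on both strands, in 8.06% and 3.53%, against 6.41% and 5.42%.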

How the data were processed

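The values are whole-number counts of reads for each gene, which the authors deposited unnormalized, for 4 NF libraries, 2 NF libraries alone and 4 tumor libraries. RNA had been made into stranded mRNA libraries. The submitters' processing notes name HISAT2 2.2.1 and GRCm38; the counting program, its strand setting and the annotation are not given in the sources used here. A further allele of the tumor genotype is not reported here. Libraries held 14142334 to 18408940 counts; a count of 0 allows up to 3 counts, or 0.163 to 0.212 CPM, for counting error only.

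Gel 5 was compared with gel 4 in edgeR 4.0.16 (R 4.3.3; TMM, filterByExpr by gel, subset as covariate, glmQLFTest, Benjamini-Hochberg over 14410 genes, threshold 0.05); SEs are of the log2 fold change. Subset, the block that pairs libraries across gels, came from the labels: the difference between subsets correlated across genes at 0.632 between gels. DESeq2 1.42.0 was an alternative. Tumor log2 differences used CPM plus 0.5, and covered percents group means of CPM.

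Genes named were the 12 highest and 12 lowest past the threshold with a covered percent under 10, the same direction in both subsets and a mean of at least 1 CPM, leaving out gene models named Gm with a number or Rik, the 3 highest and 3 lowest whatever their covered percent or name, list members past the threshold, and Epcam, Col1a1, Dpp4, Cxcl12, Mmp9 and Tnc; others are named as picked after their values were seen, as are the genes called in the chromosome 6 stretch, Chil1 and Clu. Where a symbol had several IDs, the ID with the most counts was used. The members and lists were chosen with earlier results of these data known.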

Additional observations from a re-analysis of the deposited data

Results flagged for a closer look

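Among the genes named, 2 moved in opposite directions in the 2 subsets. Malat1 had a log2 difference between gels of 0.08 in CD26- NFs and of -1.39 in CD26+ NFs, a difference of -1.47 between subsets. Mmp9 had -0.11 in CD26- NFs and 0.27 in CD26+ NFs, a difference of 0.38. Each value compares 1 library with 1, and the difference between subsets was not tested, since the interaction of subset and gel leaves no residual degrees of freedom. Among the called genes, 4 others moved in opposite directions: Hipk2, Klhl11, Gm20721 and 1810014B01Rik, all lower in gel 5 by the fit.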

How the results depend on the processing

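The count of 304 genes became 307 with RLE scaling, 319 with a filter of 1 CPM in 2 libraries, and 224 both without a filter beyond 1 count and with carried-over counts subtracted; 304, 303, 218 and 199 of these were among the 304. It became 38 with DESeq2 (30 higher, 8 lower), 6 with a log2 fold change above 2 in size (4 higher, 2 lower), 0 with no replicate block (311 at an unadjusted p under 0.05) and 0 with 6 NF libraries (947). Leaving out each library in turn, in the fit with NFs alone, gave 0 to 0 genes, with 351 to 1558 at an unadjusted p under 0.05 and 300 to 304 of the 304 keeping their direction; the lone library of a gel is then assumed to vary like the others. The cause of these losses was not tested. Of 113 named genes, 16 moved by over 1.5-fold when 1 library was left out. Besides Aspn these were, leaving out a gel 5 library (without CD26- NFs, then without CD26+ NFs), Arfgef3 (-2.14 and -0.32; -0.72 without CD26+ NFs of gel 4), CT010467.2 (-3.01 and -0.58), Cenpf (2.01 and 0.73), Cxcr4 (2.2 and 0.64), Diras1 (-3.0 and -1.76), Kif11 (2.06 and 0.79), Tnfsf15 (2.69 and 0.88) and Unc93a2 (-1.14 and -3.64; -2.56 without CD26+ NFs of gel 4), and, leaving out a gel 4 library in the same order, 1110002E22Rik (1.70 and 3.33), Acta1 (-0.73 and -2.29), Lrrc23 (-2.36 and -0.40), Malat1 (-1.26 and -0.03), Pyy (1.81 and 3.01; 2.99 without CD26+ NFs of gel 5) and Smoc2 (0.48 and 2.25). Klhl40 ran from -2.56 to -0.65 and moved with each of the 4. Subtraction reversed Mki67 (-0.19) and Slc25a13 (-0.89). Leaving out 1 library reversed genes that did not pass: Col1a1 (-0.10) and Mmp9 (-0.09) without CD26+ NFs of gel 4, Mmp9 (-0.04) without CD26+ NFs of gel 5, and Tnc (-0.13) without CD26- NFs of gel 5; over the 4 libraries left out, Col1a1 ran from -0.10 to 0.45, Mmp9 from -0.09 to 0.26 and Tnc from -0.13 to 0.62. By the ratio of summed markers the carried-over share was 2.67% and 4.03% in CD26- and CD26+ NFs of gel 4 and 2.83% and 6.26% in those of gel 5. With 1 gel per line, more depth would not separate line from gel.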
